A study of Mus musculus with 10 samples.

Results

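A list of 10 genes that mark the resident T cells of mouse epidermis was followed across 10 libraries of back skin keratinocytes: Cd3d, Cd3e, Cd3g and Trdc of the T cell receptor complex, the surface proteins Thy1 and Cd7, and the effector genes Xcl1, Gzmc, Gzmb and Nkg7. They were taken as a named list, by their Ensembl identifiers, out of 17983 genes that the files list in all, and all 10 genes are listed in every file. The list was chosen with earlier results of these data known. Its counts and medians beside those of all genes are therefore descriptions and no independent support. Dendritic epidermal T cells are gamma-delta T cells that seed the mouse epidermis before birth and stay there, with long dendrites between the keratinocytes. Nearly all of them carry the same invariant gamma-delta receptor, which reads stress signals on neighbouring keratinocytes, and once activated they release chemokines, growth factors and cytotoxic granules. Of the 10 genes, only Trdc, the constant region of the receptor's delta chain, encodes a chain of the gamma-delta receptor itself. The CD3 genes, Thy1 and Cd7 are shared with other T cells and are not all limited to T cells. Xcl1, Nkg7 and the granzymes are shared with natural killer cells.

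RNA was sequenced from cells that dispase and trypsin had released from the back skin epidermis, 5 days into a treatment that disturbs the skin barrier. The mutant mice are labelled Gsdma1KO/KO;Gsdma3fx/fx;K14-Cre, which is a germline loss of Gsdma1 with floxed Gsdma3 alleles recombined by Cre from the keratin 14 promoter. That promoter is active in keratinocytes, not in T cells, whereas the Gsdma1 alleles are carried by every cell. In which cells Gsdma3 was deleted was not tested. The control mice are labelled wild type, and the labels give no Cre or floxed alleles for them and no age, sex or strain for any mouse. The groups were mutant mice given acetone and olive oil at 4:1 (AOO; Mut_AOO, 3 libraries), mutant mice given water (Mut_H2O, 2 libraries), wild-type mice given AOO (Ctrl_AOO, 3 libraries) and wild-type mice given water (Ctrl_H2O, 2 libraries). The skin was rubbed 2 times a day for 3 days in every group. Nothing in the labels ties each library to a separate animal. The p-values therefore reflect how far these libraries differ, and part of that spread may be technical.

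Depth was 15914663 to 21812292 reads per library, recovered from the deposited normalised read counts, and the 10 genes held between 22 reads (Gzmb) and 7740 reads (Thy1) in a library. The tissue label fitted the keratinocyte keratins, with Krt5 at 211026 to 396203 and Krt14 at 156510 to 320163 normalised counts. Gsdma3 had 0 to 1 reads in Mut_AOO libraries and 0 to 3 reads in Mut_H2O libraries, against 66 to 161 reads in Ctrl_AOO libraries and 65 to 302 reads in Ctrl_H2O libraries. Gsdma, the gene of Gsdma1, kept 251 to 939 reads in Mut_AOO libraries and 140 to 193 reads in Mut_H2O libraries. Control libraries held 540 to 666 Gsdma reads in Ctrl_AOO and 208 to 562 in Ctrl_H2O, so the AOO ranges of the genotypes overlapped. Its read counts therefore do not show the labelled loss of Gsdma1 under AOO, and the extent of the deletion is not given in the sources used here. The 5 Y-linked genes read summed to 4014 to 4089 reads in Mut_AOO and 4256 to 4991 reads in Ctrl_AOO libraries, against 19 to 23 reads in Mut_H2O and 13 to 28 reads in Ctrl_H2O libraries. Sex and treatment therefore cannot be told apart in any AOO against water value below, and the 2 genotype comparisons each lie within AOO or within water. Every library held RNA of gamma-delta T cells: Trdv4, the delta variable segment of the invariant receptor, had 309 to 2326 normalised counts and Tcrg-V5, its gamma variable segment, 222 to 1126. RNA of the constant regions of the alpha-beta receptor was present too, with 54.9 to 299 normalised counts of Trac, 267 to 632 of Trbc1 and 356 to 825 of Trbc2. Which T cells gave it was not tested.

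The CD3 genes encode the signalling chains without which no T cell receptor reaches the surface. Cd3d had 384, 377 and 508 normalised counts in Mut_AOO libraries, 391 and 363 in Mut_H2O, 519, 306 and 188 in Ctrl_AOO, and 674 and 507 in Ctrl_H2O. Cd3e had 1241, 977 and 1809 normalised counts in Mut_AOO libraries, 1475 and 1321 in Mut_H2O, 2014, 1134 and 739 in Ctrl_AOO, and 3043 and 1637 in Ctrl_H2O. Cd3g had 1313, 1489 and 2340.0 normalised counts in Mut_AOO libraries, 1302 and 1203 in Mut_H2O, 1887, 1132 and 915 in Ctrl_AOO, and 2708 and 1822 in Ctrl_H2O. For all of them the first wild-type water library was the highest and the third wild-type AOO library the lowest, the first wild-type AOO library was well above the other two of its group, and the mutant libraries lay between. Between Ctrl_AOO and Ctrl_H2O the ranges of all 3 genes overlapped.

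The 3 CD3 genes lie together on chromosome 9, Cd3g on the minus strand (GRCm38, chr9:44969572-44980431), Cd3d on the plus strand (chr9:44981786-44987339) and Cd3e on the minus strand (chr9:44998740-45009627). The starts of Cd3d and Cd3g point away from each other across 1355 bases, and Cd3e starts 27825 bases from Cd3d. Across the 10 libraries Cd3d and Cd3g had a Pearson correlation of 0.93 on the log2 scale, which is a description of libraries that also share depth and group differences. That value was not particular to the pair: Cd3d had 0.93 with Cd3e and 0.97 with Nkg7, which lies on another chromosome. The promoters of Cd3d and Cd3g are shown for their divergent position. Each runs from 250 bases before to 50 bases after the RefSeq start in GRCm38.p6, 5′ to 3′ on the gene's own strand. Cd3d is at chr9:44981536-44981835 and Cd3g at chr9:44980382-44980681. Capitals mark the ETS motif GGAAGT or its other strand ACTTCC, a sequence bound by lymphoid ETS factors.
Cd3d: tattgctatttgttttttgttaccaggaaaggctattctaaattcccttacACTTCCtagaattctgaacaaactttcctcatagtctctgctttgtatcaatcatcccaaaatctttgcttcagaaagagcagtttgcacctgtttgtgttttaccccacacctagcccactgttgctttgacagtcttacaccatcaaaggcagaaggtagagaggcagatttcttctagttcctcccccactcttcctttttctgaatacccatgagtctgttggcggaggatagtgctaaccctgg
Cd3g: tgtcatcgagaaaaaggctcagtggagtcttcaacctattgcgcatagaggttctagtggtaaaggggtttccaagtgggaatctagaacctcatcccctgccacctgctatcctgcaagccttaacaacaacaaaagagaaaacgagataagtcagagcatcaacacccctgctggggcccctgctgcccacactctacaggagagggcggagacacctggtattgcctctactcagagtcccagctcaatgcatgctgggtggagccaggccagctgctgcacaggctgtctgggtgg
Cd3d held 1 match to the ETS motif and Cd3g none. That motif lies on either strand in 23.8% of 32851 RefSeq promoters of the same length, so a match is a description of the letters and not a site.

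Trdc had 1590.5, 1072 and 2122 normalised counts in Mut_AOO libraries, 2753 and 2546 in Mut_H2O, 2831, 1219.6 and 849 in Ctrl_AOO, and 5446 and 2674 in Ctrl_H2O. Both mutant water libraries were above all mutant AOO libraries, while in wild-type mice the first AOO library exceeded the second water library. Trdc lies on chromosome 14 within the T cell receptor alpha and delta locus (chr14:54142851-54148868, plus strand). Of its windows of 50 bases, 5.92% occur in transcripts of other genes, so a small part of its reads could be placed elsewhere.

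Thy1, a glycoprotein anchored in the membrane that is the classical surface marker of these cells, had 4944, 2977 and 4053 normalised counts in Mut_AOO libraries, 5146 and 4923 in Mut_H2O, 6070.4, 4385 and 2938 in Ctrl_AOO, and 7439 and 5409 in Ctrl_H2O. Cd7, an immunoglobulin-type surface protein of T and natural killer cells, had 2085, 1766 and 3126 normalised counts in Mut_AOO libraries, 1917 and 1888 in Mut_H2O, 2884, 1569 and 1269.8 in Ctrl_AOO, and 4275 and 2922 in Ctrl_H2O. Both wild-type water libraries were above every wild-type AOO library for Cd7, by a narrow margin over the first, but not for Thy1. Thy1 varied the least of the 10 genes, with a 2.53-fold span between its lowest and highest library.

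Xcl1 encodes lymphotactin, a chemokine that activated T and natural killer cells release and that draws cross-presenting dendritic cells through their receptor Xcr1. It had 181, 191 and 331 normalised counts in Mut_AOO libraries, 220.5 and 212 in Mut_H2O, 204, 108 and 119 in Ctrl_AOO, and 596 and 659.6 in Ctrl_H2O. The wild-type water libraries stood apart from the other 8 libraries, of which the highest was the third mutant AOO library. Xcl1 lies on chromosome 1 (chr1:164931644-164935527, minus strand), and 10.8% of its windows of 50 bases are shared with the predicted gene Gm20743, which overlaps it; where the counting did not use strand, their reads cannot be told apart.

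The granzymes are serine proteases of cytotoxic granules; granzyme B starts apoptosis in target cells, and granzyme C is expressed in strongly activated killer cells. Gzmc had 363, 186 and 376 normalised counts in Mut_AOO libraries, 159 and 117 in Mut_H2O, 211, 52.6 and 104 in Ctrl_AOO, and 286 and 909.7 in Ctrl_H2O. Gzmb had 42.4, 128 and 126 normalised counts in Mut_AOO libraries, 77.6 and 30.4 in Mut_H2O, 63.7, 30.6 and 24.2 in Ctrl_AOO, and 76.9 and 116 in Ctrl_H2O. The second wild-type water library alone held the high Gzmc level, while Gzmb was highest in 2 mutant AOO libraries and the second wild-type water library, with the first wild-type and the first mutant water library level below them. Nkg7, a granule membrane protein needed for degranulation, had 654, 693 and 1006 normalised counts in Mut_AOO libraries, 794 and 684 in Mut_H2O, 1115, 526 and 394 in Ctrl_AOO, and 1539 and 906 in Ctrl_H2O. Like the CD3 genes, it was highest in the first wild-type water library and lowest in the third wild-type AOO library. Gzmc (chr14:56231441-56234656) and Gzmb (chr14:56258838-56262260) lie in the granzyme cluster on the minus strand of chromosome 14 with starts 27677 bases apart, and 4.14% of the Gzmc windows are shared with its near copies Gzmd, Gzme and Gzmg, so its count is uncertain to that extent.

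The promoters of Xcl1 (chr1:164935473-164935772), Gzmc (chr14:56234608-56234907) and Gzmb (chr14:56262285-56262584) are given because these 3 effector genes had the largest interaction values of genotype and treatment among the 10 genes. All 3 are on the minus strand and are printed 5′ to 3′ over the same 300 bases around the RefSeq start (GRCm38.p6). Capitals mark matches on either strand to the cyclic AMP response core TGACGT (other strand ACGTCA), to the RUNX motif TGTGGT (other strand ACCACA) and to the ETS motif.
Xcl1: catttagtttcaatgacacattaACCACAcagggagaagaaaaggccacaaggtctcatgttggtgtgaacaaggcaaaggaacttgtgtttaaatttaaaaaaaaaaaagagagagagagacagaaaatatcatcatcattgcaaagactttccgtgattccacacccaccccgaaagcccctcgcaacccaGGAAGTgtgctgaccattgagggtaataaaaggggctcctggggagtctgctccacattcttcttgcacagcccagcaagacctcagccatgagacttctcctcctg
Gzmc: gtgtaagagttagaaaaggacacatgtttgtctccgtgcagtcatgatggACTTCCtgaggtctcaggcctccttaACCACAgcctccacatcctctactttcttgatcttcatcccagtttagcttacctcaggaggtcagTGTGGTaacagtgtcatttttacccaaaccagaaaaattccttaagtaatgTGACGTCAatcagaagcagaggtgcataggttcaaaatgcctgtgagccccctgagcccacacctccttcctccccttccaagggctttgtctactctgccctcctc
Gzmb: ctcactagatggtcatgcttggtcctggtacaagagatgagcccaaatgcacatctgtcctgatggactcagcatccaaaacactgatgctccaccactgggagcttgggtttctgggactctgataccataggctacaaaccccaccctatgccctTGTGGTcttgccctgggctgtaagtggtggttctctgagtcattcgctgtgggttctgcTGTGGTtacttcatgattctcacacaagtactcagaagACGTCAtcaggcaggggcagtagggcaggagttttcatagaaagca
Gzmc held the palindrome TGACGTCA, in which the response core matches both strands and the 2 matches overlap, and Gzmb held 1 match. Xcl1 held no match to the core. The RUNX motif occurred 1 time in Xcl1 and 2 times in each granzyme promoter, and the ETS motif 1 time in Xcl1 and in Gzmc. Of all RefSeq promoters of this length, 7.51% hold the response core and 16.8% the RUNX motif. Over the 7 of the 10 genes that have a promoter in the RefSeq table, 3 held the response core (Cd3e with the granzymes), 4 the RUNX motif (Nkg7 with Xcl1 and the granzymes) and 4 the ETS motif (Cd3d and Cd3e with Xcl1 and Gzmc).

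**Figure D1:**
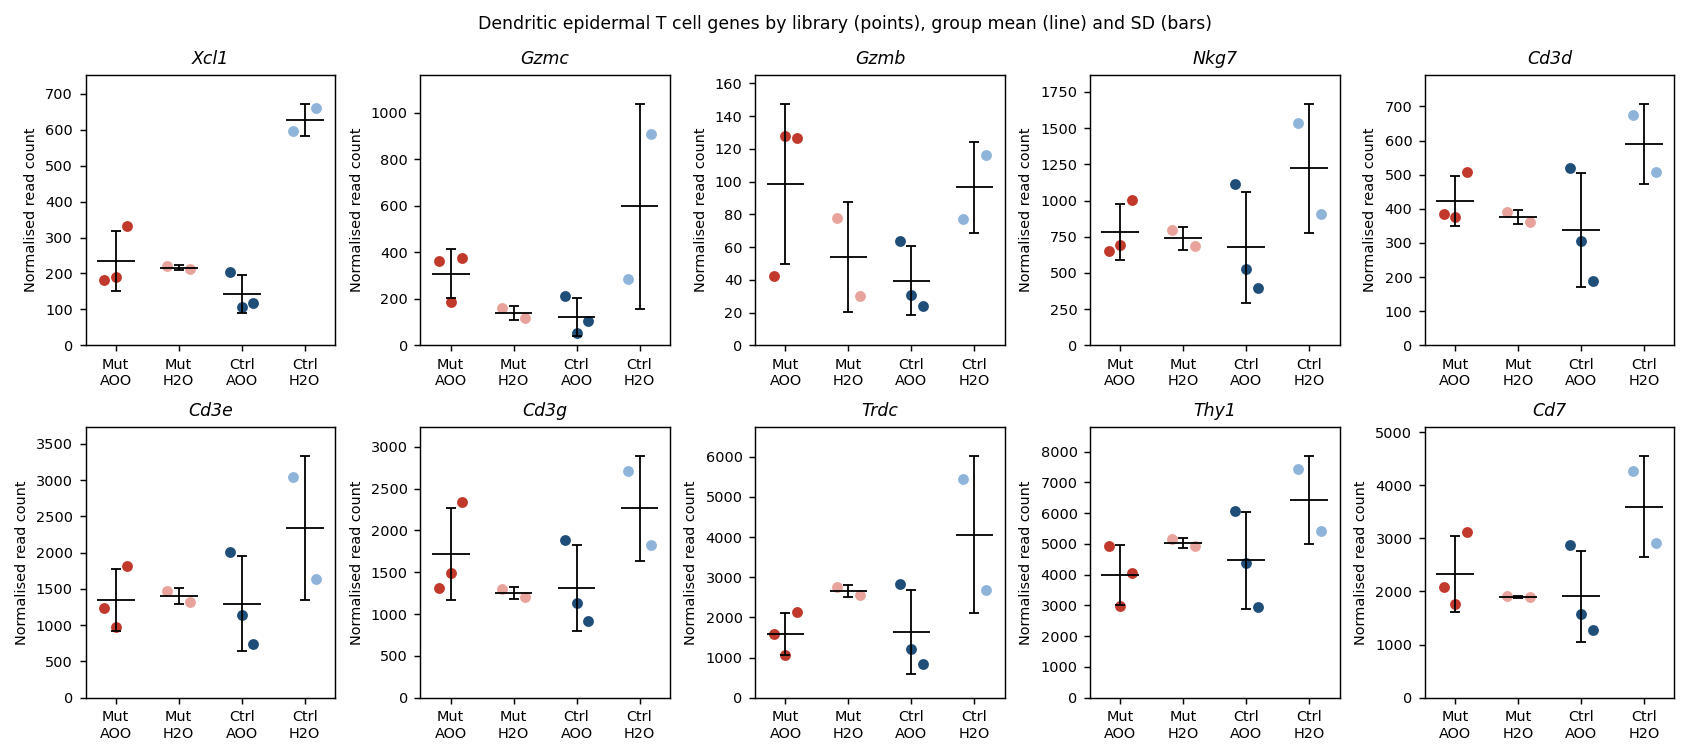
Normalised read counts of the 10 genes (y axes, linear, each from 0) in Mut_AOO, Mut_H2O, Ctrl_AOO and Ctrl_H2O; points are libraries, horizontal lines group means and bars the SD (n = 3, 2, 3 and 2). The 2 wild-type water libraries of Xcl1 sit at 596 and 659.6, above all others, and 1 wild-type water library sets the high mean of Gzmc.

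Per kilobase of exon, and averaged over the 10 libraries, Cd7 was the most abundant of the 10 genes with 2092 ± 806 normalised counts per kilobase (SD, n = 10). Thy1 followed with 1612 ± 454, Nkg7 with 909 ± 360.2, Trdc with 598 ± 344 and Xcl1 with 539.6 ± 368 normalised counts per kilobase. Below them came Cd3g with 493 ± 175, Cd3e with 377 ± 159.9, Gzmc with 309 ± 277, Cd3d with 232 ± 74.3 and Gzmb with 49.9 ± 28.2. Neighbours in this order overlapped in range in every case except the last, since the highest Gzmb library, at 88.8 normalised counts per kilobase, was below the lowest Cd3d library at 103. The span from the lowest to the highest library was 17.3-fold for Gzmc, 6.41-fold for Trdc, 6.11-fold for Xcl1 and 5.28-fold for Gzmb, and between 2.53-fold and 4.12-fold for the other 6 genes.

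The genes largely kept 1 order of libraries. The first wild-type water library was the highest for 7 genes and the second for 2 (Xcl1 and Gzmc), with Gzmb highest in the second mutant AOO library. The third wild-type AOO library was the lowest for 8 genes and the second for the other 2, Xcl1 and Gzmc. Averaged over the 10 genes as log2 values centred on each gene's mean, the level was -0.12, -0.21 and 0.44 in Mut_AOO libraries. It was 0.01 and -0.26 in Mut_H2O, 0.28, -0.71 and -0.97 in Ctrl_AOO, and 0.88 and 0.66 in Ctrl_H2O. Wild-type water libraries were thus highest on average and 2 of the 3 wild-type AOO libraries lowest, with all mutant libraries in a narrower band.

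Pearson correlation of each gene with the mean of the other 9 over the 10 libraries was 0.96 for Cd7, 0.95 for Cd3d, 0.94 for Nkg7, 0.92 for Cd3g, 0.90 for Xcl1, 0.88 for Cd3e and 0.80 for Trdc. It was lower for Gzmc (0.68), Thy1 (0.68) and Gzmb (0.65), and between single genes it ran from 0.13 (Gzmb with Thy1) to 0.97 (Cd3d with Nkg7). These values describe 10 libraries that share depth and group differences. Among all other named genes tested, the level closest to the mean of the 10 was that of St6gal1, a sialyltransferase, with r = 0.985. Fxyd5 followed with 0.983, Ctsw, a protease of cytotoxic lymphocytes, with 0.981, Acap1 with 0.974 and Rasal3 with 0.972, each over 10 libraries. Without the 2 libraries farthest from the median of the mean level, these 5 correlations were 0.973, 0.970, 0.959, 0.947 and 0.940, in the same order.

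**Figure D2:**
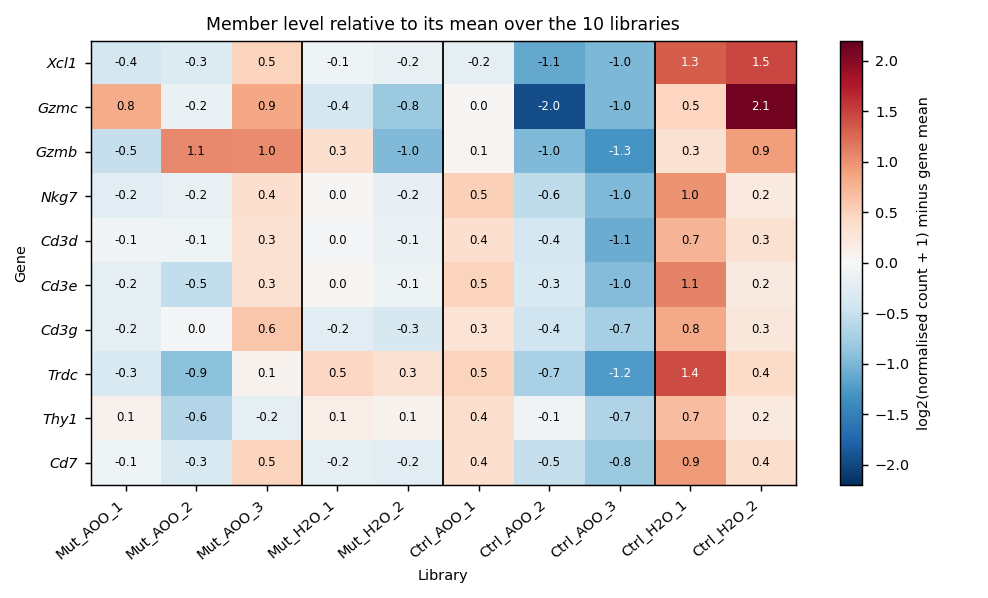
Level of each of the 10 genes (rows) in each library (columns), as log2(normalised count + 1) minus the gene's mean over the 10 libraries, from blue (below) to red (above). The 2 wild-type water libraries on the right are above the mean for all 10 genes, and Ctrl_AOO_2 and Ctrl_AOO_3 are below it for all 10.

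In wild-type mice, AOO against water, all 10 genes had negative differences, the largest in Gzmc and Xcl1. Group means of Xcl1 were 144 ± 52.7 normalised counts in Ctrl_AOO and 628 ± 45.0 in Ctrl_H2O (SD, n = 3 and 2), a ratio of 0.229, and the libraries did not overlap. The log2 difference was -2.18 (SE 0.32), with an adjusted p of 0.0552 in limma and 0.0685 in edgeR, both short of the threshold of 0.05, and of 1.07e-06 in DESeq2. Gzmc averaged 123 ± 80.8 in Ctrl_AOO and 598 ± 441 in Ctrl_H2O, a log2 difference of -2.27 (SE 0.60, adjusted p = 0.208 in limma and 0.00643 in DESeq2). Without the second wild-type water library, which held 909.7 counts of Gzmc, that difference was -1.43.

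Trdc averaged 1633 ± 1054 in Ctrl_AOO and 4060 ± 1960.5 in Ctrl_H2O, a log2 difference of -1.41 (SE 0.47, limma adjusted p = 0.271). Gzmb averaged 39.5 ± 21.2 in Ctrl_AOO and 96.5 ± 27.8 in Ctrl_H2O, a log2 difference of -1.36 (SE 0.59, limma adjusted p = 0.377). The log2 differences of the other 6 genes ran from -0.98 for Cd7, which averaged 1908 ± 859 in Ctrl_AOO and 3598 ± 957 in Ctrl_H2O, to -0.57 for Thy1, with limma adjusted p from 0.283 to 0.447. In bulk RNA, fewer T cells in a sample and less RNA of these genes per T cell cannot be told apart.

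None of the 10 genes was called in limma, where 0.0627% of the 15958 genes tested were called, nor in edgeR (0.0438% of genes called); DESeq2 called 2, Xcl1 and Gzmc, among 2.21% of genes. An unadjusted limma p under 0.05 was found for 9 of the 10, against 2051 of all 15958 genes. Of all genes tested, 49.9% had a negative difference, and the median log2 difference was -0.96 over the 10 genes against 0.00 over all. The libraries did not overlap for 4 genes (Xcl1, Gzmc, Gzmb and Cd7), while 12% of all genes were lower without overlap. A single library weighed heavily on these calls: without the first wild-type AOO library limma called 6 of the 10 genes (Xcl1, Gzmc, Trdc, Cd3d, Cd7 and Nkg7), along with 470 of 15940 genes in all against 10 of 15958, and without the third mutant AOO library it called Xcl1 (adjusted p = 0.0352). Over 22 alternatives the Xcl1 difference ran from -2.46 to -2.00, with adjusted p from 1.07e-06 to 0.275 over limma, edgeR and DESeq2.

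In mutant mice the same comparison gave no common direction. Of the 10 log2 differences of AOO against water 7 were positive, where 50.5% of all genes were, and their median was 0.11 against 0.01 over all genes. Gzmc averaged 308 ± 106 in Mut_AOO and 138 ± 29.7 in Mut_H2O, a log2 difference of 1.10 (SE 0.60, limma adjusted p = 0.210), and Gzmb averaged 98.8 ± 48.8 in Mut_AOO and 54.0 ± 33.4 in Mut_H2O, a log2 difference of 0.85 (SE 0.59, limma adjusted p = 0.328). Xcl1 averaged 235 ± 83.9 in Mut_AOO and 216 ± 6.24 in Mut_H2O, a log2 difference of 0.06 (SE 0.32, limma adjusted p = 0.905). The gene with the most negative difference was Trdc, which averaged 1595 ± 525 in Mut_AOO and 2649 ± 146 in Mut_H2O, a log2 difference of -0.79 (SE 0.47, limma adjusted p = 0.253). Thy1 followed at -0.37 and Cd3e at -0.10, and Cd3g, Cd7, Cd3d and Nkg7 lay between 0.06 and 0.41. When libraries were scaled to equal totals instead, the median of all genes shifted to 0.13 in this comparison, 0.11 in Mut_AOO against Ctrl_AOO and 0.19 in the interaction, and the Cd3e difference turned to 0.02.

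None of the 10 genes was called, and none had an unadjusted p under 0.05 in limma, in a comparison where limma called 13.4% of genes, edgeR 12.1% and DESeq2 22.6%. Gzmc and Cd3g were higher without overlap in Mut_AOO, as were 28.8% of all genes, and Trdc was lower without overlap, as were 29.2% of all genes. With limma fitted to the 5 mutant libraries alone, Gzmc was called (adjusted p = 0.0412), as were 3892 genes in all, against 2143 with all 10 libraries; over 22 alternatives its adjusted p ran from 0.0408 to 0.518. The difference of Xcl1 changed sign without the third mutant AOO library, to -0.21.

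Averaged over the genotypes, AOO against water, Xcl1 fell by 1.06 on the log2 scale (SE 0.23), with an adjusted p of 0.0220 in limma, 0.0274 in edgeR and 0.000957 in DESeq2. It was the only one of the 10 genes called lower in limma, where 5.92% of all genes were called lower and 12.8% in either direction; edgeR called 1 of the 10 (12.5% of genes) and DESeq2 called 2 (22.4% of genes). Its limma call was lost without the second wild-type AOO library (adjusted p = 0.0593), the first wild-type water library (0.0765), or the first (0.0988) or second (0.0822) mutant water library, and it held in 16 of 20 alternatives. Within the genotypes, the Xcl1 difference was 0.06 in mutant and -2.18 in wild-type mice. Trdc had a log2 difference of -1.10 (SE 0.33), close to the threshold in limma (adjusted p = 0.0529) and in edgeR (0.0629) and past it in DESeq2 (0.0167); it was called in limma without the first wild-type AOO (0.00893) or the second wild-type water library (0.0259), and over 20 alternatives its adjusted p ran from 0.00893 to 0.219. All 10 log2 differences were negative, as were 51.8% of all genes, from -1.10 to -0.21, with a median of -0.45 against -0.02 over all genes. None of the 10 genes separated all 6 AOO libraries from all 4 water libraries, which 3.43% of all genes did by being lower.

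Between the genotypes under AOO, 9 of the 10 genes had a positive limma log2 difference of Mut_AOO against Ctrl_AOO, Trdc among them although its group mean was lower in Mut_AOO (1595 against 1633 normalised counts), where 52.1% of all genes had a positive difference. The log2 difference was 1.47 for Gzmc (SE 0.53, limma adjusted p = 0.360), 1.26 for Gzmb (SE 0.53, limma adjusted p = 0.398) and 0.71 for Xcl1 (SE 0.29, limma adjusted p = 0.393). It lay between 0.10 and 0.43 for Cd3d, Cd3g, Cd7, Nkg7, Cd3e and Trdc, and was -0.13 for Thy1; edgeR and DESeq2 gave Trdc -0.02 and -0.03. The median was 0.37 over the 10 genes and 0.02 over all genes. limma and edgeR called 0 genes in all (0% each), DESeq2 called 1.05% of genes and 0 of the 10, and 3 of the 10 had an unadjusted limma p under 0.05, against 1908 of all genes. None of the 10 was higher without overlap, as 8.55% of all genes were, and the first wild-type AOO library lay within or above the mutant range for each of the 10.

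Between the genotypes under water, all 10 genes had negative differences in Mut_H2O against Ctrl_H2O, as did 51% of all genes. The log2 difference was -1.90 for Gzmc (SE 0.65) and -1.53 for Xcl1 (SE 0.35), and it lay between -0.94 and -0.33 for the other 8, with a median of -0.75 against -0.01 over all genes. Every adjusted p in limma was 0.963, and no gene at all was called in limma or edgeR (0% each). DESeq2 called 0.0376% of genes and 0 of the 10, with an adjusted p of 0.0732 for Xcl1, and 4 of the 10 (Xcl1, Gzmc, Cd7 and Cd3g) had an unadjusted limma p under 0.05, against 795 of all genes. In 8 of the 10 genes, all but Gzmb and Trdc, both mutant libraries were below both wild-type libraries, which was the case for 17.8% of all genes. All 8 alpha-beta T cell genes (median -0.83), all 7 macrophage genes (-0.66) and all 5 red blood cell genes (-1.42) were negative under water too. Of 6 keratinocyte genes 4 were positive (median 0.21).

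The interaction is the treatment difference in mutant mice minus that in wild-type mice, and it shares its libraries with the comparisons above. It was positive for all 10 genes, as for 52.1% of all genes, with a median of 1.15 on the log2 scale against 0.03 over all genes. This was not particular to the 10 genes. All 7 macrophage genes (median 2.05), all 6 endothelial genes (2.36), all 5 red blood cell genes (2.46) and all 8 alpha-beta T cell genes (1.21) were positive too. Of 6 keratinocyte genes 5 were negative (median -0.37), as were 4 of 6 fibroblast genes (-0.69). Gzmc had 3.37 (SE 0.84) and Xcl1 2.24 (SE 0.45), each with an adjusted p of 0.356 in limma and 0.322 in edgeR, and of 0.00782 for Gzmc and 0.00450 for Xcl1 in DESeq2. Over 20 alternatives the interaction ran from 2.54 to 4.21 for Gzmc and from 1.96 to 2.52 for Xcl1, with adjusted p up to 0.852. Gzmb had 2.21 (SE 0.84, limma adjusted p = 0.379), Cd3g 1.24, Cd7 1.23, Cd3d 1.07, Nkg7 1.01, Cd3e 0.80, Trdc 0.63 and Thy1 0.20. limma and edgeR called 0 genes of all tested (0% each), while DESeq2 called 1.06% of genes and 2 of the 10. Of the 10 genes, 5 had an unadjusted limma p under 0.05, against 1897 of all genes. The effector genes Gzmc, Xcl1 and Gzmb thus had the largest values and Trdc and Thy1 the smallest, but no difference of treatment response between genotypes passed the limma threshold. The sign of Thy1 turned without the third wild-type AOO library (-0.07) or the first wild-type water library (-0.02).

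**Figure D3:**
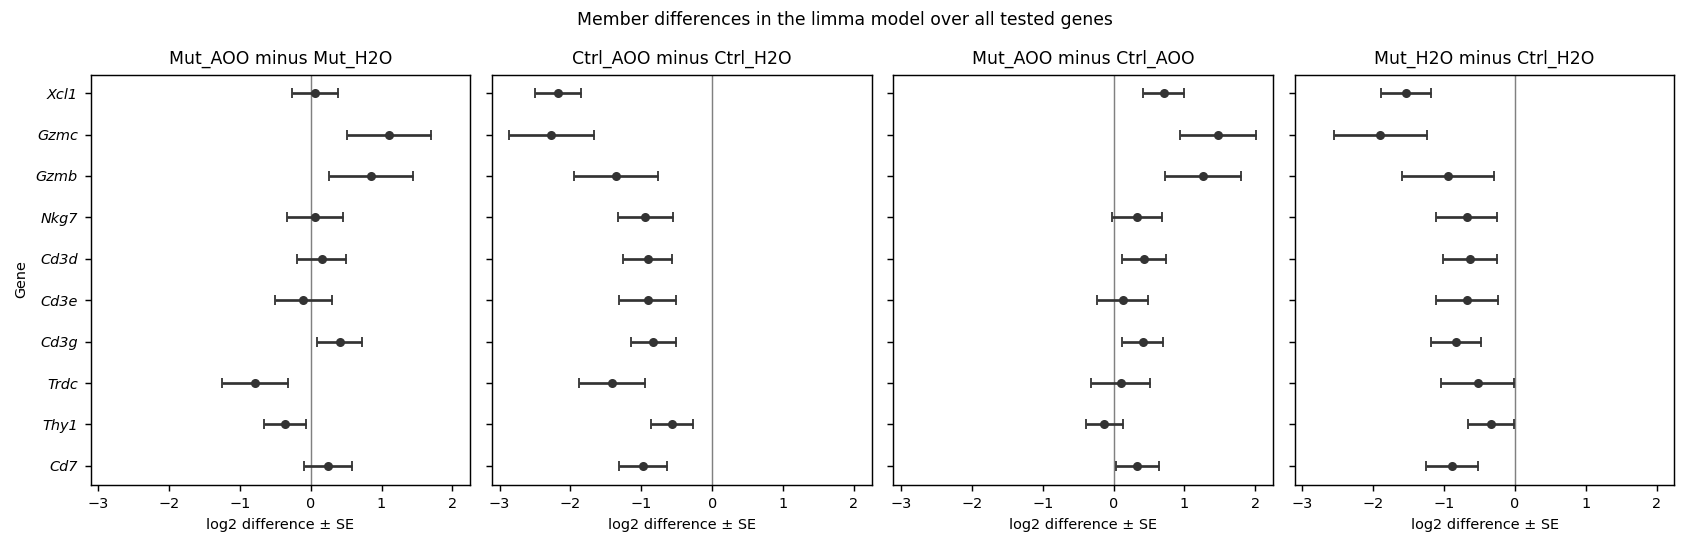
Log2 differences of the 10 genes from limma (x axes), with bars of 1 SE, for AOO minus water in mutant and in wild-type mice and for mutant minus wild type under AOO and under water. In wild-type mice all 10 points lie left of 0, from -2.27 to -0.57, while in mutant mice they lie on both sides, from -0.79 to 1.10; the panels share libraries.

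To read the effector genes relative to the T cell receptor complex, they were also set against the mean of Cd3d, Cd3e and Cd3g of the same library. Xcl1 amounted to 18.5%, 20.2% and 21.3% of that mean in Mut_AOO libraries, 20.9% and 22.0% in Mut_H2O, 13.9%, 12.6% and 19.3% in Ctrl_AOO, and 27.8% and 49.9% in Ctrl_H2O. It was highest in both wild-type water libraries and lowest in the first and second wild-type AOO libraries, while the third was within the narrow range of the mutant libraries. Over both genotypes the mean log2 ratio was -2.52 in the 6 AOO libraries and -1.82 in the 4 water libraries, a difference of -0.70 (exact two-sided permutation test, p = 0.00952, adjusted over 4 ratios p = 0.0381; the smallest p these libraries allow is 0.00476). The adjusted p rose above 0.05 on leaving out any library except the third mutant AOO or the first mutant water one (differences from -0.85 to -0.43 over all 10 omissions), and with Trdc in place of the CD3 mean the difference was 0.04 (adjusted permutation p = 0.914).

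Gzmc amounted to 37.1%, 19.6% and 24.2% of the CD3 mean in Mut_AOO libraries, 15.0% and 12.1% in Mut_H2O, 14.3%, 6.13% and 17.0% in Ctrl_AOO, and 13.4% and 68.8% in Ctrl_H2O. All 3 mutant AOO libraries were above both mutant water libraries, and the wild-type water libraries were far apart from each other. Its log2 ratio differed by -0.23 between AOO and water libraries (exact permutation p = 0.743). Gzmb lay between 3.16% and 13.5% of the CD3 mean, with a difference of 0.10 (exact permutation p = 0.819), and Nkg7 between 61.3% and 75.7%, with a difference of -0.09 (exact permutation p = 0.2095). Nkg7 thus kept the steadiest share of the CD3 level among the 4 effector genes, with the groups overlapping.

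Trdc is given here without a test and was 162%, 113% and 137% of the CD3 mean in Mut_AOO libraries, 261% and 265% in Mut_H2O, 192%, 142% and 138% in Ctrl_AOO, and 254% and 202% in Ctrl_H2O. All 6 AOO libraries were below all 4 water libraries. Its variable segment Trdv4 was 58.1%, 33.7% and 45.5% of the CD3 mean in Mut_AOO, 106% and 103% in Mut_H2O, 77.7%, 49.4% and 50.3% in Ctrl_AOO, and 109% and 76.0% in Ctrl_H2O. For Trdv4 the first wild-type AOO library and the second wild-type water library were close, with a narrow overlap. Trac, the constant region of the alpha chain, lay between 8.75% and 17.8% of the CD3 mean in AOO libraries and between 13.8% and 16.0% in water libraries. Trbc2, of the beta chain, lay between 29.6% and 91.4% in AOO libraries and between 27.7% and 44.1% in water libraries. The part of alpha-beta T cells in the CD3 values was not tested.

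**Figure D4:**
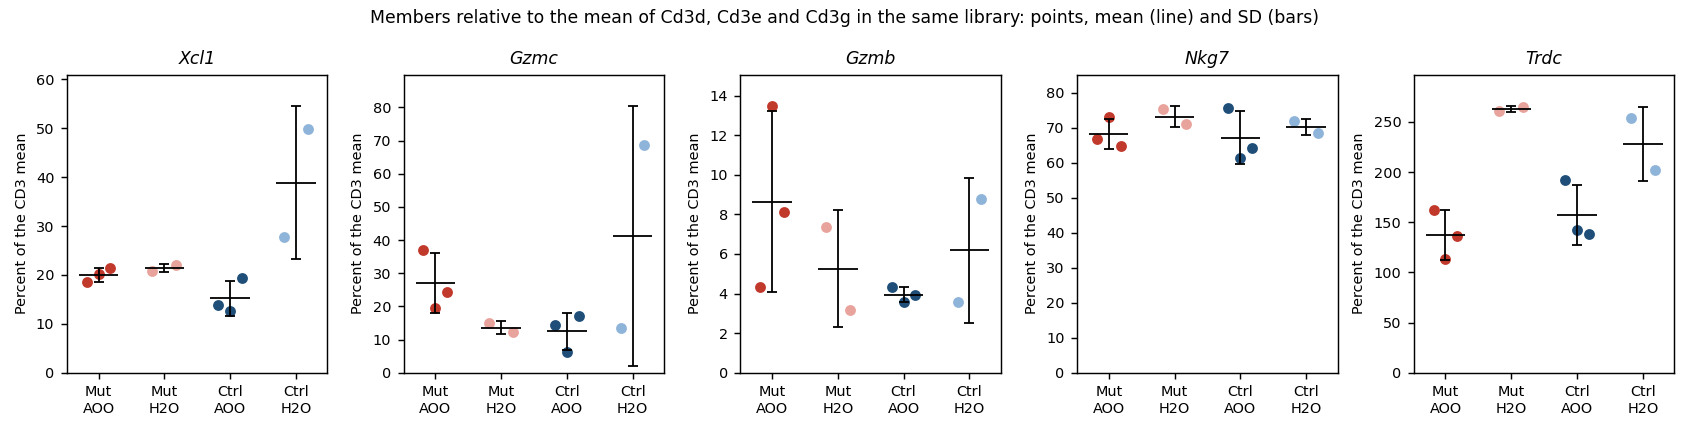
Xcl1, Gzmc, Gzmb, Nkg7 and Trdc as a percent of the mean of Cd3d, Cd3e and Cd3g in the same library (y axes, linear, from 0); points are libraries, lines group means and bars the SD (n = 3, 2, 3 and 2 for Mut_AOO, Mut_H2O, Ctrl_AOO and Ctrl_H2O). Nkg7 stays between 61.3% and 75.7%, while Trdc is at most 192% in AOO libraries and at least 202% in water libraries.

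Genes of 6 companion lists put the 10 genes in their setting. Over all genes, limma called 0.0627% in wild-type mice, 13.4% in mutant mice and 12.8% averaged over genotypes. In the same order edgeR called 0.0438%, 12.1% and 12.5%, and DESeq2 2.21%, 22.6% and 22.4%. An unadjusted limma p under 0.05 was found for 2051, 5580 and 5638 of 15958 genes. Of 20 further genes of the T cell receptor complex and its proximal signalling, all 20 had negative differences in Ctrl_AOO against Ctrl_H2O (median -1.17 on the log2 scale), and 13 had an unadjusted limma p under 0.05; 0 were called by limma, edgeR or DESeq2. In Mut_AOO against Mut_H2O 13 of the 20 were negative (median -0.22), and none was called by limma, edgeR or DESeq2, with 1 at an unadjusted limma p under 0.05. Averaged over genotypes 1 of the 20 was called in limma, where 5.92% of all genes were called lower. That gene, Trdv4, fell by 1.29 (limma adjusted p = 0.0489), with 569, 320 and 707 normalised counts in Mut_AOO libraries, 1115 and 993 in Mut_H2O, 1144, 423 and 309 in Ctrl_AOO, and 2326 and 1004 in Ctrl_H2O. Only 1 AOO library, the first wild-type one, exceeded the lowest water library. Trdv4 was called in 11 of 20 alternatives and in 2 of the 10 that leave out a library, those without the first wild-type AOO and without the second wild-type water library.

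Of the 13 tested cytotoxic and natural-killer-type genes of 18 listed, all were negative in wild-type mice (median -1.04; 0 called in limma and edgeR, 1 in DESeq2, 4 with an unadjusted limma p under 0.05) and 6 of 13 in mutant mice (median 0.09; 0 called in limma and edgeR, 2 in DESeq2, 2 with an unadjusted limma p under 0.05). Averaged over genotypes, Cd160, a receptor of cytotoxic lymphocytes, fell by 1.13 (limma adjusted p = 0.0368), with 26.9, 44.0 and 49.1 normalised counts in Mut_AOO libraries, 58.2 and 60.8 in Mut_H2O, 38.8, 37.3 and 17.6 in Ctrl_AOO, and 112 and 80.6 in Ctrl_H2O. Every AOO library was below every water library, as for 3.43% of all genes. Of 20 genes for cytokine and chemokine receptors, retention and adhesion, 18 were negative in wild-type mice (median -1.24; 0 called in limma and edgeR, 2 in DESeq2, 14 with an unadjusted limma p under 0.05). In mutant mice 13 of these 20 were negative and 1 was called in limma. That gene was Il12rb2, a subunit of the interleukin-12 receptor, which fell by 1.82 (adjusted p = 0.0322), with 476, 242 and 479 normalised counts in Mut_AOO and 1429.7 and 1260.3 in Mut_H2O. Il18r1, a subunit of the interleukin-18 receptor, fell by 0.85 on average over genotypes (limma adjusted p = 0.0349), as did Il12rb2 by 1.18 (0.0398).

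Of 17 cytokine, chemokine and growth factor genes, 11 were negative in wild-type mice (median -0.39; 0 called in limma and edgeR, 2 in DESeq2, 4 with an unadjusted limma p under 0.05) and 12 were positive in mutant mice (median 0.69). In limma 2 of the 17 were called in the mutant, where 13.4% of all genes were. Il17a, the interleukin of barrier defence, rose by 2.49 in Mut_AOO against Mut_H2O (limma adjusted p = 0.0325), with 24.8, 47.6 and 13.2 normalised counts in Mut_AOO, 5.29 and 2.43 in Mut_H2O, 21.9, 13.4 and 11.0 in Ctrl_AOO, and 8.65 and 3.75 in Ctrl_H2O. Lymphotoxin alpha, Lta, rose by 1.47 in the mutant (limma adjusted p = 0.0447), with 48.6, 64.7 and 133 normalised counts in Mut_AOO and 23.8 and 29.2 in Mut_H2O, beside 31.9, 39.2 and 45.0 in Ctrl_AOO and 51.9 and 69.3 in Ctrl_H2O. Every AOO library was above every water library for Il17a, as for 716 of 15958 genes. For Lta the AOO libraries were the higher in the mutant and the lower in wild type. Averaged over genotypes, Il17a was called as well, at 1.86 (limma adjusted p = 0.0288). Il17a also comes from other T cells of the skin.

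Among 18 transcription factors of gamma-delta T cells, 12 were negative in wild-type mice (median -0.34; 0 called in limma, edgeR or DESeq2, 6 with an unadjusted limma p under 0.05). In mutant mice 13 were negative (median -0.34), with 1 called in limma and edgeR, 4 in DESeq2 and 9 at an unadjusted limma p under 0.05. Gata3 (4413 to 7675 normalised counts) and Ahr (2158 to 5345) exceeded each CD3 gene in every library. Which cells gave the RNA of this list was not tested. Blk, a lymphocyte kinase held in this list for its part in interleukin-17-producing gamma-delta T cells, rose by 2.25 in the mutant (limma adjusted p = 0.0259), with 41.4, 53.0 and 49.1 normalised counts in Mut_AOO and 16.8 and 4.87 in Mut_H2O, beside 23.9, 25.8 and 12.1 in Ctrl_AOO and 21.1 and 23.4 in Ctrl_H2O. Bcl11b, a T lineage factor that keratinocytes express as well, rose by 0.69 over both genotypes (limma adjusted p = 0.0368). Of 14 tested keratinocyte partners of 15 listed, 4 were negative in wild-type mice (median 0.16; 0 called in limma and edgeR, 1 in DESeq2, 1 with an unadjusted limma p under 0.05) and 10 in mutant mice (median -0.19). H60c, the stress ligand on keratinocytes that the Klrk1 receptor of these T cells recognises, rose by 1.16 over both genotypes (limma adjusted p = 0.00887), with 1607, 1439.8 and 1030.3 normalised counts in Mut_AOO, 489.5 and 717 in Mut_H2O, 1157, 1594 and 1873 in Ctrl_AOO, and 574 and 803 in Ctrl_H2O. All 6 AOO libraries were above all 4 water libraries, in both genotypes, as for 716 of 15958 genes. Il18 rose by 1.25 over both genotypes (limma adjusted p = 0.0474), and Cdh1, the E-cadherin that tethers epidermal T cells to keratinocytes, fell by 0.60 (0.0388). In the mutant alone H60c rose by 1.17 (limma adjusted p = 0.0269) and Cdh1 fell by 0.97 (0.0275).

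These companion calls depended on single libraries. Without Mut_AOO_2, Mut_AOO_3 or either mutant water library, limma called none of Il17a, Lta, Blk, H60c, Il12rb2 and Cdh1 in the mutant comparison. Il17a and Lta were lost there without Ctrl_AOO_2 as well (limma adjusted p = 0.0558 and 0.0732). Averaged over genotypes, H60c kept its call in 19 of 20 alternatives and lost it without the first mutant water library (adjusted p = 0.0608). The other 8 genes called there were lost without the second wild-type AOO, the first wild-type water, the second mutant AOO or either mutant water library. Without the third wild-type AOO library all of the 8 but Il17a were lost, with limma adjusted p from 0.0535 to 0.0851. Without the third mutant AOO library all but Il17a and Il18r1 were lost. Trdv4 was lost without the first mutant AOO library too (limma adjusted p = 0.0539).

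**Figure D5:**
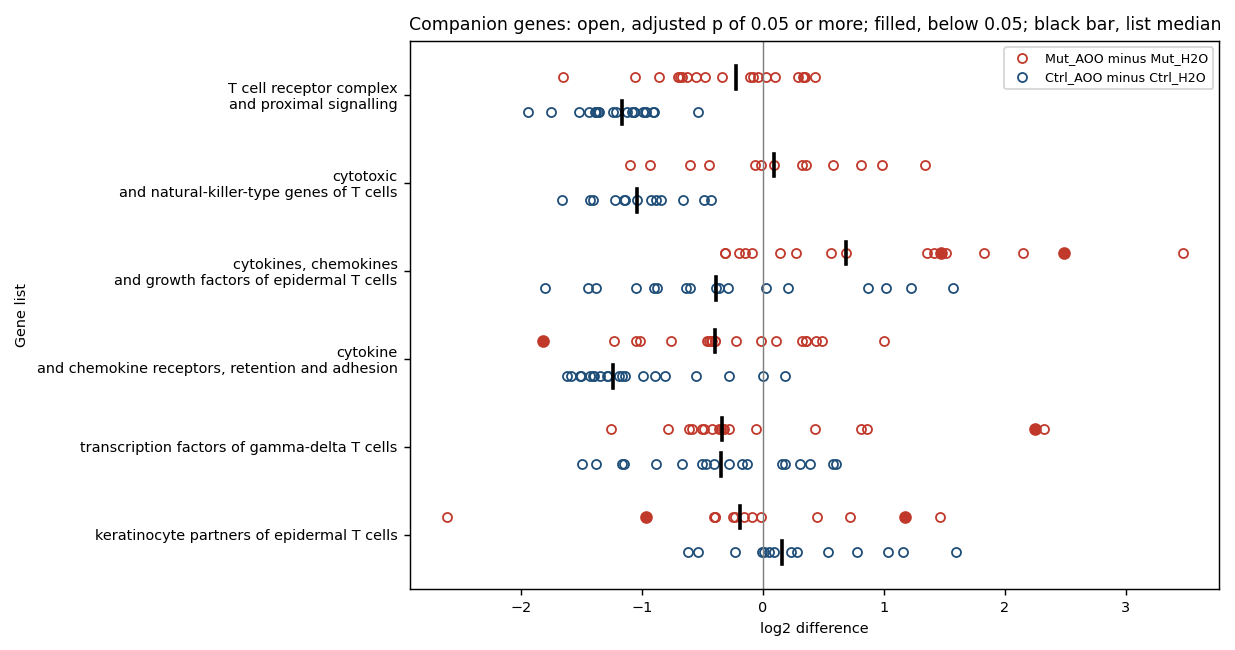
Log2 differences (x axis) of the tested genes of 6 companion lists (rows), AOO minus water in mutant mice (red, upper) and in wild-type mice (blue, lower); filled points have a limma adjusted p below 0.05 and black bars are list medians. In wild-type mice all 20 receptor complex genes and all 13 cytotoxic genes lie left of 0, and in mutant mice both lists lie on both sides.

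Markers of other cells differed between the groups as well, not always in the same libraries. All 12 Langerhans and dendritic cell genes were negative in Ctrl_AOO against Ctrl_H2O (median -1.19), and their summed level was 20685 to 35266 normalised counts in Mut_AOO, 20271 to 21577 in Mut_H2O, 10061 to 13970 in Ctrl_AOO and 15858 to 43522 in Ctrl_H2O. Its highest library was the second wild-type water library, which was also the highest for Xcl1 and Gzmc, while the first, where 7 of the 10 genes were highest, was below every mutant library. All 8 alpha-beta T cell genes were negative in that comparison as well, with sums of 1557 to 2220 in Mut_AOO, 1195 to 1219 in Mut_H2O, 1005 to 1736 in Ctrl_AOO and 1650 to 2223 in Ctrl_H2O. Foxp3 of regulatory T cells was under 50 in every library, and Cd4 lay between 13.2 and 73.0. Of 7 natural killer and innate lymphoid genes 3 are listed in all files, and these summed to 116 to 318. Most of that sum was Kit, at 85.1 to 279, against 6.29 to 37.5 for Klrb1c and 11.0 to 56.8 for Il1rl1. Which cells gave the Kit RNA was not tested. In Mut_AOO against Mut_H2O, 6 of 7 macrophage genes were positive (median 1.62), 4 of them called higher in limma and 5 each in edgeR and DESeq2. They summed to 603 to 1126 in Mut_AOO, 369 to 395 in Mut_H2O, 350 to 441 in Ctrl_AOO and 621 to 818 in Ctrl_H2O. All 6 endothelial genes were positive there (median 1.86), with 3 called higher in limma, 1 in edgeR and 3 in DESeq2, and summed to 680.3 to 925 in Mut_AOO, 117 to 400.2 in Mut_H2O, 132 to 303 in Ctrl_AOO and 244 to 436 in Ctrl_H2O. Hair shaft genes summed to 10619 in the second wild-type water library, against 120 to 2255 in the other 9. Red blood cell genes, 5 of 5 called higher in limma in Mut_AOO against Mut_H2O, summed to 14407 to 27549 in Mut_AOO, 1176 to 2544 in Mut_H2O, 4427 to 13396 in Ctrl_AOO and 3321 to 6497 in Ctrl_H2O. The part of these other cells, and of uneven release of cells from the epidermis, in the values of the 10 genes was not tested.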

How the data were processed

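The deposited values, 1 table per library, are a normalised read signal per gene: read counts that the authors divided by 1 factor per library. The submitters' processing notes name GRCm38 (mm10), featureCounts 2.0.0, DESeq2 1.26.0 and Trimmomatic 0.38. Which aligner was used, and whether reads were counted by strand, is not given in the sources used here; the library kit named in the labels' protocol does not mark strand. Values were whole multiples of 1 step for 100% of genes (tolerance 0.1 read), which recovered whole reads. Genes were matched by Ensembl identifier to GENCODE for GRCm38 (17983 of 17983), and promoters come from RefSeq.

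The 15987 genes listed in every file were scaled by median-of-ratios factors (0.995 to 1.004), and those reaching 10 in 2 or more libraries entered the tests (15958, all 10 of the genes described among them). limma 3.58.1 (R 4.3.3) was fitted to log2(value + 1) over all genes and 10 libraries as 4 group means, two-sided, with Benjamini-Hochberg adjustment and a threshold of 0.05. Fold changes on this scale understate changes of low genes. edgeR 4.0.16 (quasi-likelihood) and DESeq2 1.42.0 were run on the recovered reads of 15977 genes. Ratios to the CD3 mean were tested by exact permutation over libraries. The code was tested on simulated data.

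The 10 genes and the companion lists were chosen with earlier results of these data known. Companion genes are named where they had the lowest adjusted p of their list, with at most 3 a list, and the genes most like the 10 by Pearson correlation. Alternatives were other tools, scalings, pseudocounts and filters, a replicate block, the compared groups alone, and each library left out. Same-numbered libraries of the AOO groups correlated at 0.307, -0.105 and 0.131 in their deviations from the group means. The same number gave 0.410 and 0.450 for Ctrl_H2O with Mut_AOO, and 0.303 and -0.067 for Ctrl_H2O with Ctrl_AOO. Same-numbered values for Mut_H2O with the other groups lay between 0.022 and 0.186. Libraries of unlike number ran from -0.450 (Ctrl_H2O_1 with Mut_AOO_2) to 0.347 (Ctrl_AOO_3 with Ctrl_H2O_2). In a group of 2 libraries the deviations mirror each other, so values with such a group come in pairs of opposite sign. The main model left libraries unpaired, and whether the numbers mark a shared batch was not settled. PCR reads are not independent molecules.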

Additional observations from a re-analysis of the deposited data

How the results depend on the processing

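Of the 10 genes, the number called in limma was 0 for AOO against water in wild-type mice, but 2 in DESeq2, 1 with the replicate number as a block (Xcl1, adjusted p = 0.0286) and 0 to 6 when 1 library was left out. Averaged over genotypes it was 1, but 2 in DESeq2, 2 with the replicate block, 2 with a filter of 50 or more, and 0 to 5 when 1 library was left out. It was 0 for the interaction and 2 in DESeq2, and 0 in mutant mice and 1 with only the compared groups fitted, also with all genes listed in both. For the genotype comparisons it was 0 under every alternative. The labels tie same-numbered libraries by their number alone, and the block changed no other call of the 10 genes.

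Signs turned in few places. In Mut_AOO against Mut_H2O, Xcl1 was -0.022 with the replicate block and Cd3e 0.021 at equal totals. In Mut_AOO against Ctrl_AOO, Trdc was -0.023 in edgeR and -0.034 in DESeq2. With Trdc as the denominator of the ratios, Xcl1 was 0.042, Gzmc 0.52 and Nkg7 0.66 (adjusted permutation p = 0.0190). With 1 library left out, the mutant treatment difference ran from -0.13 to 0.18 for Nkg7, -0.21 to 0.22 for Xcl1 and -0.34 to 0.10 for Cd3e. The averaged difference of Gzmb ran from -0.59 to 0.072. In Mut_AOO against Ctrl_AOO, Thy1 ran from -0.40 to 0.12, Cd3e from -0.21 to 0.51 and Trdc from -0.27 to 0.59, and the interaction of Thy1 from -0.067 to 0.46. The ratio differences ran from -0.85 to -0.43 for Xcl1, -0.16 to 0.34 for Gzmb and -0.47 to 0.36 for Gzmc. The causes were not tested.

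Over all genes, limma called 10 in wild-type mice, 353 with DESeq2, 58 with the replicate block and 6 to 470 with 1 library left out. Averaged, it called 2043, DESeq2 3586 and 164 to 4155 with 1 library left out. In mutant mice it called 2143, DESeq2 3612, and 9 to 3141 with 1 library left out; 1076 were higher and 1067 lower, against 1348 and 844 at equal totals. Groups of 2 and 3 libraries, and treatment groups of unlike sex, limit every value.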

Other observations

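Xcr1, the receptor of the chemokine Xcl1, was chosen after its values were seen. It had 20.7, 8.98 and 11.3 normalised counts in Mut_AOO libraries, 108 and 93.7 in Mut_H2O, 35.8, 15.3 and 4.39 in Ctrl_AOO, and 170.1 and 42.2 in Ctrl_H2O. All 6 AOO libraries were below all 4 water libraries, in both genotypes, as for 3.43% of all genes. Averaged over genotypes Xcr1 fell by 2.71 on the log2 scale (SE 0.55, limma adjusted p = 0.0183), and in the mutant by 2.88 (limma adjusted p = 0.0399); in wild-type mice the difference was -2.54 (limma adjusted p = 0.251). The averaged call held in 17 of 20 alternatives and was lost without the first wild-type water library or without either mutant water library, with an adjusted p of up to 0.0896. The mutant call held in 17 of 22 alternatives. It was lost in limma without the second wild-type AOO library (adjusted p = 0.0642), Mut_AOO_2 (0.115) or Mut_AOO_3 (0.105). It was also lost without the first or second mutant water library, with differences of -2.77 and -2.98. Unlike Xcl1, the receptor gene thus had lower values in AOO libraries of the mutant as well. That difference between the genes was not tested. Xcr1 marks cross-presenting dendritic cells; of the 12 Langerhans and dendritic cell genes it is listed with, 8 had a positive difference in Mut_AOO against Mut_H2O.

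Trbc2, also chosen after its values were seen, had 584, 825 and 784 normalised counts in Mut_AOO libraries, 356 and 425 in Mut_H2O, 436, 423 and 561 in Ctrl_AOO, and 593 and 471 in Ctrl_H2O. It rose by 0.89 in Mut_AOO against Mut_H2O (limma adjusted p = 0.0285), in the comparison in which Trdc had a difference of -0.79 that passed no threshold. Trbc2 was the 1 gene called in limma there among the 8 alpha-beta T cell genes, of which 5 were positive and 3 negative. Trac averaged 137 normalised counts in Mut_AOO and 139 in Mut_H2O. A change in the share of alpha-beta T cells was not tested. The Trbc2 call held in 17 of 22 alternatives and was lost in limma without the second wild-type AOO library (adjusted p = 0.0511), Mut_AOO_2 (0.0912), Mut_AOO_3 (0.0886), or the first (0.204) or second (0.136) mutant water library.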
